A study of Mus musculus with 12 samples.

Results

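Actin is the protein that builds the filaments by which a lymphocyte changes shape, crawls and forms contacts. Single actin molecules are held ready by profilin and by the thymosins, filaments are branched by the Arp2/3 complex, and they are taken apart again by cofilin with help from the coronins. Vimentin forms a separate, more stable set of filaments that lymphocytes also carry. The 10 genes described here cover these steps: the actins Actb and Actg1, the monomer binders Pfn1, Tmsb4x and Tmsb10, the severing factor Cfl1, the Arp2/3 subunits Arpc1b and Arpc2, the coronin Coro1a, and Vim. They were selected on a measured value: the list was drawn up around a very high Actb, already known, in 1 library. All 10 were among the 14431 genes that passed the filter on low counts, of 29542 genes with a matched transcript. The level of Actb in that library is therefore given as a description with no test, and the other 9 genes, called its partners below, are read against it.

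Group 2 innate lymphoid cells (ILC2s) are tissue lymphocytes that secrete type 2 cytokines and act without an antigen receptor. The RNA came from ILC2s sorted from lymph nodes that drain the skin. They came from mixed bone marrow chimeras: CD45.1 congenic hosts, irradiated with 950 cGy, were given equal amounts of CD45.2 Rag1-/- marrow and CD90.1 WT marrow, so both genotypes grew up in the same kind of host, of C57BL6 strain. All mice had IL-33, which expands ILC2s, on each of 7 days before harvest, with 30 ng into each cheek and 240 ng into the peritoneum. The 4 groups of 3 libraries were Rag1 KO cells at 20 weeks after transplant, WT cells at 20 weeks, Rag1 KO cells at 8 weeks and WT cells at 8 weeks. Whether the libraries of 1 group are from separate mice is not stated, and the p-values measure only the spread between these libraries. The age and sex of the mice and the deleted part of Rag1 are not given in the sources used here.

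Estimated reads per library ran from 11433625 to 32529806. Rag1 was at 13.2, 18.4 and 10.8 estimated reads in the Rag1 KO libraries of 20 weeks. It was at 0, 14.5 and 12.2 in those of 8 weeks, and at 0 in all 6 WT libraries. The estimates span whole transcripts, so they check no deleted part. So few reads do not settle whether the labels are right, and the groups are called KO-labelled and WT-labelled. The WT donors also carry the CD90.1 marker, an allele of Thy1, so genotype and donor marker cannot be told apart. Thy1 was at 16.8 to 37.8 CPM in the KO-labelled and at 2.94 to 5.68 CPM in the WT-labelled libraries. The 12 ILC2 markers set for the check were measured in all 12 libraries, with a summed level of 5360 to 8290 CPM (a gene's reads scaled to the same library size by TMM, the scale of every level below unless TPM is named). Of the 8-week libraries, 2 stood apart: KO-labelled replicate 3 was the highest of the 12 libraries for 16.8% of the genes tested and the lowest for 16.7%, and WT-labelled replicate 2 the highest for 17.6% and the lowest for 19.9%. In the other 10 libraries these shares ran from 3.37% to 12.4% and from 2.24% to 10.5%. In bulk RNA, fewer cells with a transcript and less of it per cell cannot be told apart.

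Actb, which encodes the cytoplasmic beta actin, was the most abundant gene in all 12 libraries, both by reads and by TPM, the deposited measure that corrects for transcript length. It had 46242, 53045 and 30402 CPM in KO-labelled cells and 34258, 54308 and 38510 CPM in WT-labelled cells at 20 weeks. At 8 weeks it had 29382, 42659 and 241900 CPM in KO-labelled cells and 55195, 92325 and 54118 CPM in WT-labelled cells. The third KO-labelled library of 8 weeks thus stood alone, at 2.62 times the next highest library and 5.23 times the median of the other 11, while its 2 companions in the group were below the median of all 12 (49640 CPM). In that library Actb took 18.27% of the matched reads (95% Wilson interval 18.25% to 18.29%, which covers counting error only), against 2.905% to 8.282% in the others. The 10 most abundant genes together took 24.53% there, against 8.849% to 15.03% in the others. To the precision given, 100% of the Actb reads of every library were assigned to 1 transcript, Actb-201, of 1920 bases, and 4 of the 8 listed Actb transcripts had no reads at all.

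Actg1, which encodes gamma actin, the other cytoplasmic actin, went the opposite way. It had 3493, 3793 and 3533 CPM in KO-labelled cells and 4382, 3179 and 3240 CPM in WT-labelled cells at 20 weeks. At 8 weeks it had 4869, 3762 and 2274 CPM in KO-labelled cells and 3200, 2579 and 4103 CPM in WT-labelled cells. The library with the highest Actb had the lowest Actg1, and the library with the lowest Actb, KO-labelled replicate 1 of 8 weeks, had the highest Actg1. The ratio of Actb to Actg1 in TPM lay between 5.02 and 24.3 in 11 libraries and was 88.6 in the third KO-labelled library of 8 weeks.

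Both genes encode nearly the same protein, and the deposited estimates assign reads by words of 20 bases. The first 90 coding bases of each leading transcript (GENCODE M21, GRCm38) are shown to let a reader see how far they differ; capitals mark the bases that differ between them, and both genes lie on the minus strand, Actb at chr5:142903115-142906754 and Actg1 at chr11:120345690-120348542.
Actb-201: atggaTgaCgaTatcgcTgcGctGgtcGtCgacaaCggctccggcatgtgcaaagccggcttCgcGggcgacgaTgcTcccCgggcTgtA
Actg1-204: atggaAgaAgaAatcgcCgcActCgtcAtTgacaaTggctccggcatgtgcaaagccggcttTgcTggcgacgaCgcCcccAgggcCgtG
Over these bases 16 differed, and over the whole coding stretch of 1128 bases 128 differed (88.7% identical), with the longest identical run at 62 bases. The coding stretches of Actb-201 and Actg1-204 shared 170 words of 20 bases. Of the distinct 20-base words of Actb-201, 56.4% also occurred in a transcript of some other gene. The largest overlap was with Lrrc58, at 699 of 1892 words, and the next was with the pseudogenes Gm15725 and Gm4750. Reads assigned to these genes were few beside those of Actb: 73769 for Lrrc58, 0 for Gm15725 and 10682 for Gm4750 over all 12 libraries, against 14879959 for Actb. Lrrc58 and Gm4750 were themselves highest in the third KO-labelled library of 8 weeks, at 13100 and 2400 estimated reads.

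Beside the excess of Actb in this library, 0 of its 9 partners had their highest level there. Actg1 and Coro1a had their lowest, and Pfn1 ranked 2 of 12. Over all genes tested, 16.8% were highest and 16.7% lowest in it, so these counts among 9 genes do not set the partners apart. None of the 9 was under 0.5 times its lowest level in the other libraries, where 2.87% of all genes were. The median partner stood at 0.649 times its median in the other 11 libraries, beside 0.984 for the median of all genes tested. Together the 9 partners took 0.800% of the reads of this library and 1.02% to 2.17% of the others. With CPM on the plain library total, where the reads taken by Actb lower every other gene, 6 partners were lowest in it, and by TPM 5 were. Under each of the 5 scalings compared, Actb was the highest of 12, at 2.21 to 2.75 times the next library, and no partner was.

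**Figure D1:**
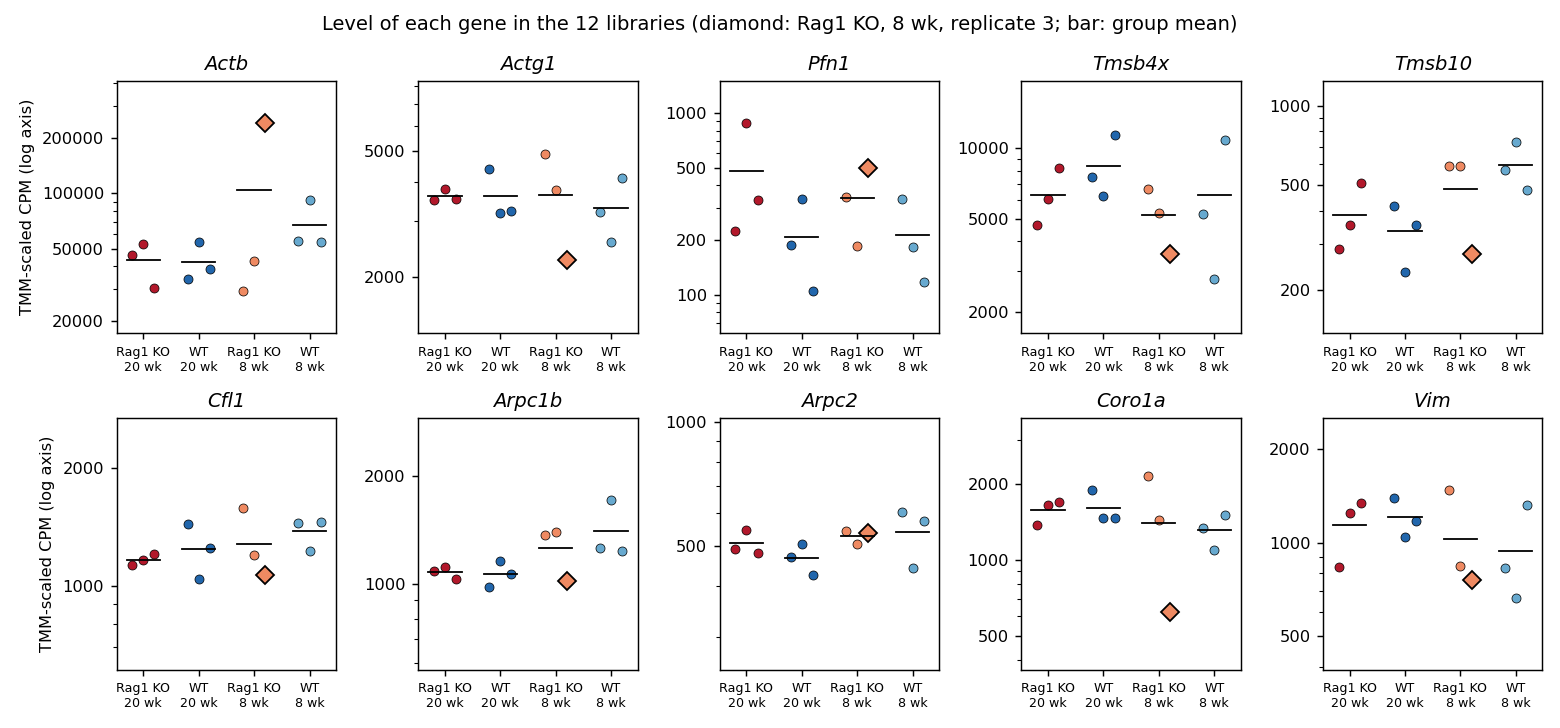
Level of each of the 10 genes in the 12 libraries, as TMM-scaled CPM on a log axis, by group, with a bar at each group mean. The diamond is KO-labelled replicate 3 of 8 weeks: it lies far above all other points for Actb (241900 CPM) and below them for Actg1 (2274) and Coro1a (623).

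Coro1a, which encodes the coronin of blood cells, a filament-binding protein that works with Arp2/3 and cofilin, showed the largest shortfall. It had 1373, 1646 and 1701 CPM in KO-labelled cells and 1900, 1464 and 1471 CPM in WT-labelled cells at 20 weeks. At 8 weeks it had 2157, 1438 and 623 CPM in KO-labelled cells and 1338, 1097 and 1514 CPM in WT-labelled cells. The value of 623 CPM was 0.423 times the median of the other libraries and 0.568 times the lowest of them. Pfn1, which encodes profilin 1, the protein that hands actin to growing filament ends, was the partner furthest above its median there, at 496 CPM or 2.21 times the median of the others. It was still below the 881 CPM of KO-labelled replicate 2 of 20 weeks. The remaining 6 partners stood at 0.566 (Tmsb4x) to 1.06 (Arpc2) times their medians in the other libraries.

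Actb was not the gene with the largest excess in this library. Of all genes tested, 192 (1.33%) were over 2 times their highest level in the other 11 libraries, and Actb ranked 81st by this ratio, or 45th among the 2065 genes of at least 100 CPM there. WT-labelled replicate 2 of 8 weeks had 197 such genes and each of the other 10 libraries 5 to 44. The 10 largest ratios at 100 CPM or more were those of Csnk2a1 (4.54), Clasp2 (4.07), Ptges3 (4.05), Cdv3 (3.86), Abhd2 (3.65), Tubb5 (3.62), St13 (3.61), Tmem263 (3.48), Rbm15 (3.43) and Alkbh5 (3.41). Tubb5, which encodes a beta tubulin, and Clasp2, whose product binds microtubule ends, are cytoskeletal genes of the microtubule side. Tubb5 had 23220 CPM there against 6421 CPM in the next library. It was the only 1 of the 13 genes of the tubulin list to be highest there. Tuba1a, Tuba1c, Tuba4a and Tubb2a were at their lowest of 12, and the median of the list was 0.812 times the other libraries.

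Among 169 other genes of actin, myosin, intermediate filament, tubulin and septin lists, 37 (21.9%) had their highest level in this library and 34 (20.1%) their lowest, with a median of 1.01 times the other libraries. Of these genes, 7 were over 2 times the next library. They included Actc1, a muscle actin at only 2.28 CPM, the formin Fmnl2 at 3.75 CPM, Tubb5, Sept11 at 2232 CPM against 1066 CPM in the next library, and both gene entries named Sept2. Several genes that act on actin were highest in it by less; the genes named in this paragraph were chosen after their values were seen. Rhoa, the GTPase that switches on actin contraction, had 1287 CPM against 840 CPM in the next library. Myh9, a heavy chain of non-muscle myosin, had 2437 against 1303 CPM, and Actr2, the actin-related protein 2 of the Arp2/3 complex, had 4880 against 3328 CPM. Others of the same lists were low there: Actr3, the partner of Actr2, had 478 CPM or 0.68 times its median in the other libraries, and Arpc1a had 81.5 CPM, its lowest of 12. Of the 12 myosin genes 1 was highest and 3 lowest in it, and of 14 genes of the cofilin list 1 and 4. Other lists leaned the other way. Of 19 filament crosslinkers and side binders 7 were highest and 4 lowest, and of 13 capping and severing genes 5 and 2. Of 15 genes of the list around serum response factor, a known driver of actin genes, 4 were highest and 2 lowest. Of the 12 housekeeping genes set beside them, Tpt1 was highest in it and those at their lowest included Gapdh, Eef1a1, Ppia and Rplp0, with a median of 0.702 times the other libraries.

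**Figure D2:**
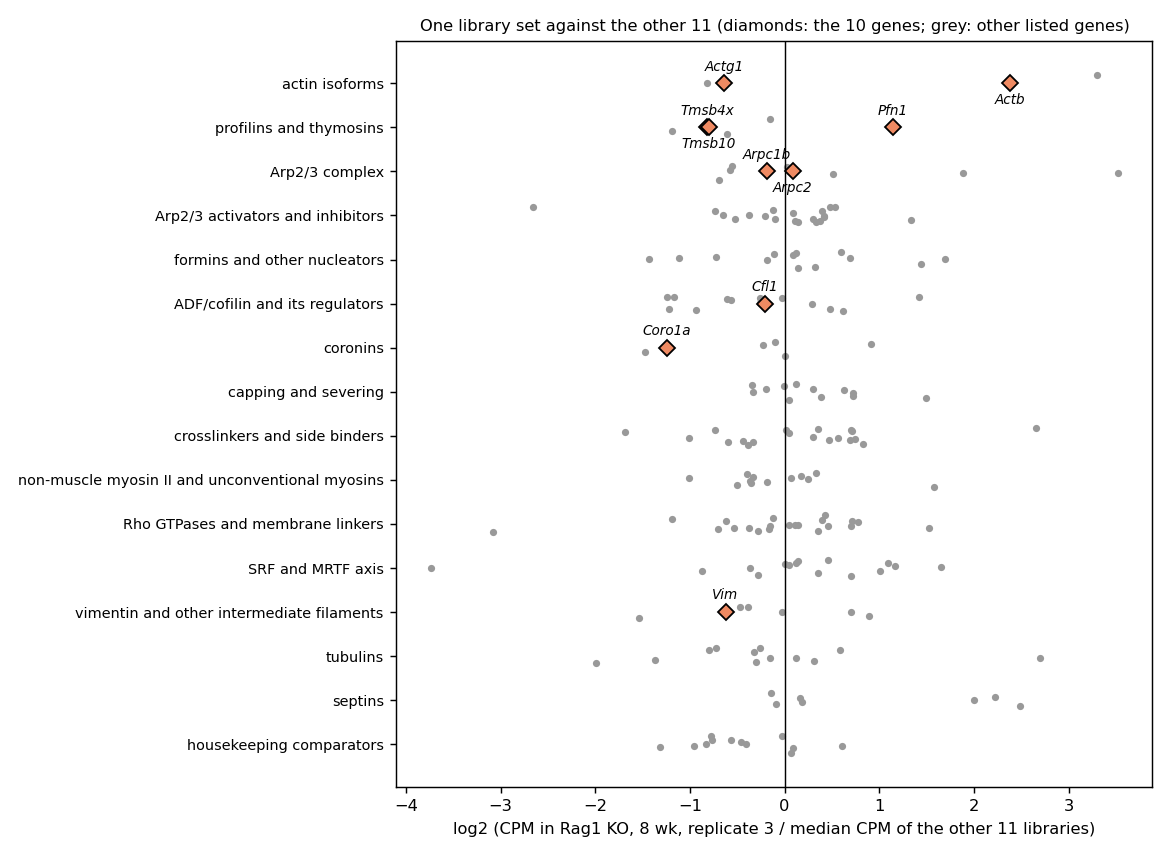
Level in KO-labelled replicate 3 of 8 weeks over the median of the other 11 libraries, on a log2 axis, for each gene tested in 15 cytoskeleton lists and the housekeeping list; diamonds are the 10 genes described here and genes with a level or median of 0 are left out. Actb lies far to the right (5.23 times), Pfn1 at 2.21 times, and most other diamonds lie left of the line at 0.

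Other measures of this library were taken alongside. The summed ILC2 markers were at 7500 CPM, rank 4 of 12. Of the 5 smooth muscle markers, a cell type rich in other actins, 4 were under 1 CPM in all 12 libraries; they summed to 1.60 CPM there and to at least 1.12 CPM in every other library, and those of neutrophils to 0. NK cell markers summed to 228 CPM (35.0 to 231 CPM in the others), fibroblast markers to 10.6 CPM and platelet markers to 3.66 CPM, each the second highest of 12, while markers of T cells, endothelium, keratinocytes and red cells were the lowest of 12; their part in the Actb level was not tested. Over 3956 genes of at least 30 CPM on average, the ratio of this library to the median of the others had a Spearman rho of -0.32 with the GC content of the leading transcript and of 0.28 with its length, as a description over genes that are not independent. In the other 11 libraries the rho ran from -0.44 to 0.47 for GC content and from -0.44 to 0.45 for length. Actb-201 and Actg1-204 had 51.1% and 51.2% GC and 1920 and 1827 bases; the part of either property in the Actb level was not tested.

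Levels of Actg1, Coro1a and Vim ran opposite to Actb in the other libraries too. Over the 12 libraries, the Pearson correlation of log2 CPM was -0.95 between Actb and Coro1a, -0.83 between Actb and Actg1, and -0.67 between Actb and Vim. Over the 11 libraries without KO-labelled replicate 3 of 8 weeks it was -0.84, -0.72 and -0.73. Tmsb4x was at -0.65 and -0.61 with Actb over the 12 and the 11 libraries, while Arpc1b was at 0.06 and 0.59. These are descriptions, as levels in 1 library share its scaling. A gene that takes up reads lowers the rest on the plain library total, which TMM scaling is meant to offset. Any remaining part of this in the correlations was not tested. Actg1, Coro1a and Vim went together, with a correlation of 0.91 between Actg1 and Coro1a, 0.79 between Actg1 and Vim and 0.76 between Coro1a and Vim (0.90, 0.77 and 0.89 over the 11 libraries). Tmsb4x went with Vim (0.82) and Tmsb10 with Arpc1b (0.70). Tmsb10 is taken here without its near copies Gm9844 and Gm3788, which are described below. WT-labelled replicate 2 of 8 weeks was highest for both genes of the latter pair. With the copies added it ranked 9 of 12 for Tmsb10.

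The genes most like Actb over the 12 libraries, among 4829 genes of moderate or high level, were Dpysl2, Entpd7, Rhoa, Pdzd8 and Hnrnpl, with correlations of 0.98 to 0.99. Without KO-labelled replicate 3 of 8 weeks these were 0.94 to 0.98. Dpysl2, which encodes a protein that binds tubulin, had 1746, 1804 and 1151 CPM in KO-labelled cells and 1375, 1901 and 1539 CPM in WT-labelled cells at 20 weeks. At 8 weeks it had 1258, 1710 and 7906 CPM in KO-labelled cells and 1956, 2849 and 2118 CPM in WT-labelled cells. Like Actb, it was highest in KO-labelled replicate 3 and next highest in WT-labelled replicate 2 of 8 weeks. None of the 5 shared more than 3 of its 20-base words with Actb-201. The single most similar gene was Me2 for Pfn1 (0.94), mt-Nd4l for Tmsb4x (0.98), Psmb9 for Tmsb10 (0.94) and Srrt for Cfl1 (0.92). It was Tm2d3 for Arpc1b (0.99), Manf for Arpc2 (0.91), H2-T-ps for Coro1a (0.98) and Pole4 for Vim (0.95). Tmsb10 is again taken without its near copies.

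**Figure D3:**
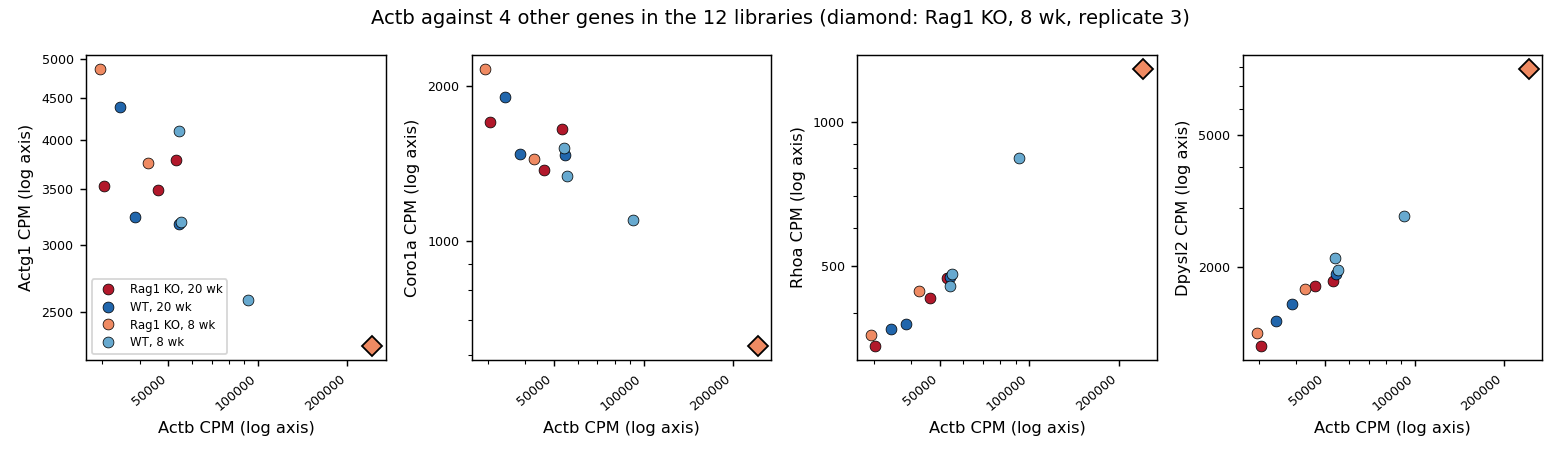
Level of Actg1, Coro1a, Rhoa and Dpysl2 against Actb in the 12 libraries, all as CPM on log axes, coloured by group. Actg1 and Coro1a are lower where Actb is higher, Rhoa and Dpysl2 higher, and KO-labelled replicate 3 of 8 weeks (diamond) lies at the end of each course.

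The promoters of Actg1, Coro1a and Vim are shown because these genes went together. Each line gives the 250 bases before the RefSeq start of the gene on its own strand (GRCm38.p6), with any CArG box, the motif bound by the serum response factor that is known to drive actin genes, in capitals; the box was searched as its named consensus, which reads the same on both strands.
Actg1 (chr11:120348496-120348745, minus strand): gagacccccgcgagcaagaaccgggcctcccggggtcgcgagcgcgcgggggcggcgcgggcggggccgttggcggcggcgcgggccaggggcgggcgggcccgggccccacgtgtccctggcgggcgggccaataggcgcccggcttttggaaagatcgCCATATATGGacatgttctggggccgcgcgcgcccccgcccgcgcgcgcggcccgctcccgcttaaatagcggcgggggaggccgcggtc
Coro1a (chr7:126704817-126705066, minus strand): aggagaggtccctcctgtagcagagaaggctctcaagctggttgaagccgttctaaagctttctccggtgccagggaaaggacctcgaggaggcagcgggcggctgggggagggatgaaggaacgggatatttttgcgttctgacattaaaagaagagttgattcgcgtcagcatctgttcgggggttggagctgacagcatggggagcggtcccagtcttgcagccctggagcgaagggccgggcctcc
Vim (chr2:13574061-13574310, plus strand): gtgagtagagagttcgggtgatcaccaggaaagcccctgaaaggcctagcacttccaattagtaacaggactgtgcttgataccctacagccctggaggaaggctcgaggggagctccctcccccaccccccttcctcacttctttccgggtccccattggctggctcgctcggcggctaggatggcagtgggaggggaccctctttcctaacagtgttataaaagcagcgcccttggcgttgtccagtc
Windows were matched for 9 of the 10 genes (not Actb). A CArG box was present in 1 of these 9, Actg1, where it begins 90 bases before the start, and in 1.47% of all 32851 windows. The letters TATAAA, searched on both strands, were present in 1 of 9 (Vim) and in 12.4% of all windows, and CCAAT, on both strands, in 3 of 9 (Actg1, Cfl1 and Vim) and in 33.8%. The capitals mark a match of letters and no measured site.

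In order of their median TPM, a scale on which genes can be compared, the 10 genes ran Actb (34490), Tmsb4x (11600), Actg1 (2951), Arpc1b (2057), Cfl1 (1436), Coro1a (1379), Tmsb10 (1040), Vim (876), Arpc2 (456) and Pfn1 (448). Actb was above Tmsb4x, Tmsb4x above Actg1, Arpc1b above Cfl1 and Vim above Arpc2 in 12 of 12 libraries, and Actg1 was above Arpc1b in 11 of 12. Cfl1 and Coro1a, Tmsb10 and Vim, and Arpc2 and Pfn1 did not differ beyond their spread, each being the higher in 6 of 12 libraries. Coro1a was above Tmsb10 in 8 of 12. Tmsb10 is taken here too without its near copies.

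The genes differed in how steady they were. Arpc2, the subunit that anchors the Arp2/3 complex to the mother filament, ranged 1.42-fold over the 12 libraries (424 to 603 CPM) and Cfl1, which encodes the cofilin that severs old filaments, ranged 1.52-fold (1040 to 1579 CPM). Arpc1b, a subunit that blood cells favour over Arpc1a, ranged 1.76-fold and Vim 2.23-fold. Tmsb4x, which encodes thymosin beta 4, the main store of unpolymerised actin in leukocytes, ranged 4.09-fold, from 2769 CPM in WT-labelled replicate 2 of 8 weeks to 11314 CPM in WT-labelled replicate 3 of 20 weeks. Pfn1 ranged 8.42-fold, from 105 to 881 CPM, and 4.74-fold without KO-labelled replicate 2 of 20 weeks.

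Pfn1 had 225, 881 and 331 CPM in KO-labelled cells and 188, 334 and 105 CPM in WT-labelled cells at 20 weeks. At 8 weeks it had 343, 186 and 496 CPM in KO-labelled cells and 338, 183 and 118 CPM in WT-labelled cells. The groups overlapped at both times. The model also split its reads unevenly: Pfn1-204, a transcript annotated for nonsense-mediated decay, took 11.5%, 0.0165% and 36.5% of the Pfn1 reads in KO-labelled cells and 0% in all 3 WT-labelled libraries at 20 weeks. At 8 weeks it took 43.2%, 54.4% and 42.4% in KO-labelled cells and 45.8%, 48.9% and 0% in WT-labelled cells. Actg1-206, likewise annotated for decay, took 31.4% of the Actg1 reads in WT-labelled replicate 2 of 8 weeks and at most 7.95% in any other library.

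The first comparison asked whether ILC2s labelled as Rag1 KO carried other levels of these genes than ILC2s labelled as WT from the same kind of host. At 20 weeks none of the 9 partners passed the test: edgeR called 0 of 9, DESeq2 0 and limma-voom 0, with an unadjusted p under 0.05 for 0, 1 and 0 of them in that order, where 0.0554% of all genes tested were called by edgeR. Their fitted log2 fold changes ran from -0.41 for Tmsb4x (SE 0.43) to 1.20 for Pfn1 (SE 0.58), with a median of 0.00 beside -0.01 for all genes tested, and 0 of 9 had groups that did not overlap (11.4% of all genes). Tmsb4x averaged 6306 ± 1750 CPM in KO-labelled cells and 8355 ± 2636 CPM in WT-labelled cells (SD, n = 3 each). Actb averaged 43230 ± 11620 CPM in KO-labelled cells and 42360 ± 10560 CPM in WT-labelled cells, a difference of 0.03 on the log2 scale. The fit over all groups takes its spread from every library, so the test is given without KO-labelled replicate 3 of 8 weeks, where the difference was 0.04 (edgeR adjusted p = 1). Its sign turned when any of 4 single libraries was left out, at -0.15 without KO-labelled replicate 2. Of the 169 other cytoskeleton genes, 0 were called by edgeR, DESeq2 or limma-voom, and 1, 2 and 3 had an unadjusted p under 0.05 in those tools, in that order.

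At 8 weeks again 0 of 9 partners were called by edgeR, DESeq2 or limma-voom and 0 had an unadjusted p under 0.05, where 0.201% of all genes tested were called. Log2 fold changes ran from -0.29 for Tmsb10 (SE 0.33) to 0.68 for Pfn1 (SE 0.57), with a median of -0.03 beside 0.02, and 0 of 9 had groups that did not overlap (5.63% of all genes). Actb averaged 104600 ± 119000 CPM in KO-labelled cells and 67210 ± 21750 CPM in WT-labelled cells, with a log2 difference of 0.64 that is given with no test. Without KO-labelled replicate 3 the difference was -0.90, and without that library and WT-labelled replicate 2 it was -0.59. The sign of Tmsb4x (-0.28, SE 0.43) turned to 0.36 without WT-labelled replicate 3, and that of Tmsb10 to 0.17 without both libraries that stood apart.

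The other lists held 2 calls at 8 weeks, each also made without both libraries that stood apart. Coro2b, which encodes a coronin known mainly from neurons, had 14.0, 13.0 and 12.3 CPM in KO-labelled cells against 1.44, 0.494 and 0.919 CPM in WT-labelled cells. The fitted difference was 3.72 on the log2 scale (adjusted p = 0.00314, SE 0.44). At 20 weeks the groups lay closer, at 15.7, 9.88 and 6.51 CPM in KO-labelled cells and 3.97, 7.35 and 5.84 CPM in WT-labelled cells. Nefh, which encodes the heavy neurofilament, had 20.0, 11.5 and 17.6 CPM in KO-labelled cells against 0 in all 3 WT-labelled libraries (adjusted p = 0.000225); its fitted fold change rests on the prior count and is not given. At 20 weeks Nefh had 19.2, 13.5 and 10.8 CPM in KO-labelled cells and 14.9, 9.86 and 8.58 CPM in WT-labelled cells.

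Averaged over both times, 0 of 9 partners were called by any of the 3 tools (0.222% of all genes tested were called by edgeR). In edgeR 1 of 9, Pfn1, had an unadjusted p under 0.05. Its fitted log2 difference was 0.94 (SE 0.41, edgeR adjusted p = 1), and 0.54 without KO-labelled replicate 2 of 20 weeks. Actb had a log2 difference of 0.33, which was -0.43 without KO-labelled replicate 3 of 8 weeks. Coro2b, with a fitted log2 difference of 2.31 (adjusted p = 0.00376, SE 0.29), and Nefh (adjusted p = 0.000429) were the 2 calls among the 169 other genes. The difference of the genotype effects between times was called for 0 of 9 partners by any of the 3 tools, with 0 at an unadjusted p under 0.05, where 0.097% of all genes tested were called by edgeR. Its values ran from -0.21 for Vim (SE 0.45) to 0.51 for Pfn1 (SE 0.81), and the Pfn1 value turned to -0.27 without KO-labelled replicate 2 of 20 weeks. Among the other genes Nefh was called in this comparison by edgeR (adjusted p = 0.000462) and not by limma-voom (adjusted p = 0.0605).

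**Figure D4:**
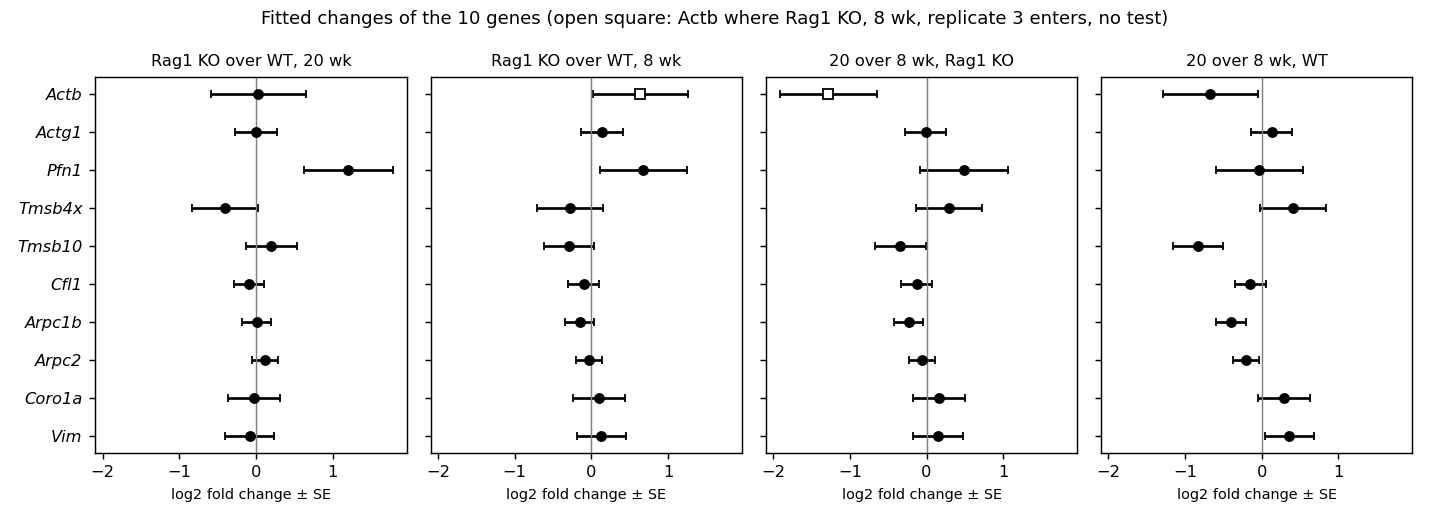
Log2 fold change of each gene with its SE in 4 comparisons, KO-labelled over WT-labelled cells at 20 and at 8 weeks and 20 over 8 weeks in each genotype. Every tested value had an adjusted p above 0.05; the open squares give Actb where KO-labelled replicate 3 of 8 weeks enters, with no test.

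The second comparison asked how the genes stood at 20 weeks relative to 8 weeks after transplant; time and whatever else differed between the harvests cannot be told apart, and these comparisons share libraries with those above. In KO-labelled cells 0 of 9 partners were called by edgeR, DESeq2 or limma-voom and 0 had an unadjusted p under 0.05 (0.0624% of all genes tested were called), and 0 of 9 had groups that did not overlap (16.4% of all genes). Log2 fold changes ran from -0.34 for Tmsb10 (SE 0.33) to 0.49 for Pfn1 (SE 0.57). Actb had a log2 difference of -1.28 with no test, which was 0.27 without KO-labelled replicate 3 of 8 weeks. Among the other genes Fos, an early response gene that is a target of serum response factor, fell at 20 weeks. It had 213, 181 and 226 CPM at 20 weeks against 901, 1041 and 510 CPM at 8 weeks, or -1.98 on the log2 scale (adjusted p = 0.0144, SE 0.25). The lowest 8-week value is that of replicate 3. Adjusted p-values for Fos were above 0.05 with any 1 of the 20-week KO-labelled libraries left out, at 0.117 to 0.164, and without KO-labelled replicate 2 of 8 weeks, at 0.0659.

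In WT-labelled cells 0 of 9 partners were called by any of the 3 tools and 1, Tmsb10, had an unadjusted p under 0.05 in edgeR, against 2 in DESeq2 and 1 in limma-voom (0.513% of all genes tested were called). Fitted changes ran from -0.83 for Tmsb10 (SE 0.33, adjusted p = 0.319) to 0.41 for Tmsb4x (SE 0.43), with a median of -0.03 beside 0.03 for all genes tested. Of the 9 partners, 2 were lower in every 20-week than in every 8-week library, Arpc1b and Tmsb10, where 19.3% of all genes had groups that did not overlap. Arpc1b had 978, 1158 and 1065 CPM at 20 weeks against 1260, 1717 and 1239 CPM at 8 weeks, a difference of -0.40 on the log2 scale (adjusted p = 0.406, SE 0.20) that was -0.23 without WT-labelled replicate 2 of 8 weeks. Actb averaged 42360 ± 10560 CPM at 20 weeks and 67210 ± 21750 CPM at 8 weeks (SD, n = 3 each), a difference of -0.67 on the log2 scale that was -0.37 without the same library. Fitted without KO-labelled replicate 3 of 8 weeks it was -0.67 (edgeR adjusted p = 0.261).

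Tmsb10, which encodes thymosin beta 10, a close relative of thymosin beta 4, has near copies elsewhere in the genome, and its value turned on them. It had 417, 234 and 354 CPM at 20 weeks against 572, 729 and 481 CPM at 8 weeks in WT-labelled cells. Its coding stretch of 135 bases is shown beside that of Gm9844, annotated as a protein-coding gene, with the bases that differ from Tmsb10 in capitals (GENCODE M21, GRCm38).
Tmsb10 (chr6:72957347-72958748, minus strand): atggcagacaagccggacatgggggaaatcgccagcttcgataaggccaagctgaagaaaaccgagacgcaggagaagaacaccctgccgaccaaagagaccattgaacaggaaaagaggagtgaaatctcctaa
Gm9844 (chr7:24862213-24862697, plus strand): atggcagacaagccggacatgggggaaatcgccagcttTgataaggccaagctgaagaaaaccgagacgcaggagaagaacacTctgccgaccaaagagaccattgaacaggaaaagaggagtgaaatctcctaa
The 2 stretches differ at 2 bases (98.5% identical). Of the 20-base words of the leading Tmsb10 transcript, 69.0% also occurred in Gm9844 and 18.5% in the pseudogene Gm3788. Of the reads assigned to the 3 genes, the share given to Gm9844 and Gm3788 was 46.8%, 68.8% and 70.2% at 20 weeks and 34.5%, 0.0215% and 52.3% at 8 weeks in WT-labelled cells. With the 3 genes summed, an alternative chosen after seeing the data, the levels were 783, 752 and 1190 CPM at 20 weeks and 872, 729 and 1010 CPM at 8 weeks. The summed groups overlapped, and the log2 fold change was 0.05 (adjusted p = 0.96).

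**Figure D5:**
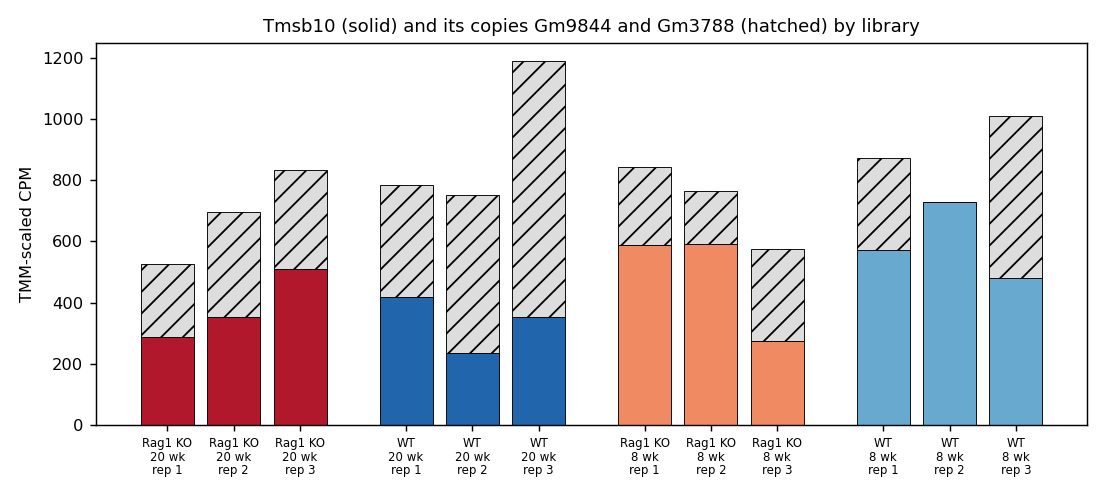
Level of Tmsb10 (solid) with the summed level of its copies Gm9844 and Gm3788 (hatched) on top, as CPM, in each of the 12 libraries. The share of the bar given to the copies runs from 0.0215% in WT-labelled replicate 2 of 8 weeks to 70.2% in WT-labelled replicate 3 of 20 weeks.

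The other members with close copies were less affected. Gm5637 took 5.91% to 12.5% of the reads of Arpc1b and itself, Gm6180 took 2.17% to 5.31% of those of Cfl1, Gm12715 at most 3.44% of those of Actg1 and Gm4750 at most 0.164% of those of Actb. With these reads added, Arpc1b in WT-labelled cells was at 1100, 1280 and 1130 CPM at 20 weeks and at 1430, 1930 and 1380 CPM at 8 weeks, still without overlap (log2 fold change -0.45, adjusted p = 0.361). In the third KO-labelled library of 8 weeks, Actg1 with its copy was still the lowest of 12 and Actb with its copy the highest.

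Of the 169 other cytoskeleton genes, edgeR called 4 between times in WT-labelled cells, 2 higher and 2 lower at 20 weeks, where 0.513% of all genes were called. DESeq2 called 8, where it called 3.45% of all genes tested. Coro2b rose, with the levels given above, by 2.52 on the log2 scale (adjusted p = 0.0216, SE 0.43). Its adjusted p was 0.106, 0.0756 and 0.0693 without WT-labelled replicates 2 and 3 of 20 weeks and replicate 2 of 8 weeks, in turn, and 0.134 in limma-voom. Nefh, at 0 in every 8-week WT-labelled library, rose as well (adjusted p = 6.84e-05). Fos fell, with 227, 200 and 218 CPM at 20 weeks against 937, 1232 and 982 CPM at 8 weeks (-2.29 on the log2 scale, adjusted p = 0.00109, SE 0.26). Egr1, another early response gene that serum response factor drives, fell too, with 8.24, 6.30 and 13.3 CPM at 20 weeks against 50.4, 43.5 and 29.1 CPM at 8 weeks (-2.15, SE 0.41, adjusted p = 0.0428), a call that was lost when any 1 of 9 libraries was left out, with adjusted p of 0.0549 to 0.2. These were the 2 calls among 15 tested genes of the serum response factor list, whose median was -0.17 beside 0.03 for all genes tested. The median of the 10 Arp2/3 genes, which include Arpc1b and Arpc2, was -0.22 in this comparison. This was not particular to them, with -0.22 for the tubulins and -0.21 for the myosins, while the coronins were at 0.21.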

How the data were processed

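Of the values that each deposited table gives per transcript, 2 were used, an expected count (estimated reads) and a TPM. Per the file headers, they were estimated by sailfish 0.6.3 from 20-base words of an Ensembl mouse transcriptome. The tools in the submitters' processing notes are others (STAR 2.0.4b, featureCounts 1.4.5, Subread, bcl2fastq), with no stated role in these tables. A k-mer method divides reads shared by near-identical genes by a model. The labels call the molecule polyA RNA, although their protocol depletes ribosomal RNA and primes with random hexamers; strand is not stated.

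Of 86127 transcripts, 83739 matched GENCODE M21 (GRCm38) and were summed to 29542 genes; those not matched held 1.0% to 1.53% of the reads. Expected counts were rounded, filtered with filterByExpr, scaled by TMM and fitted on 4 group means with the quasi-likelihood test of edgeR 4.0.16, with Benjamini-Hochberg adjustment over all 14431 genes tested and calls at 0.05 (common biological coefficient of variation 0.377). The script was tested on simulated data. DESeq2 1.42.0, limma-voom 3.58.1, RLE factors, the plain library total, no filter, length-scaled TPM, the libraries of a contrast alone, thread number, a replicate block and leaving out libraries were alternatives; fits with the members left out of the scaling or with near copies added were chosen after seeing the data. Likeness was the highest Pearson correlation of log2(CPM + 1) among genes whose mean CPM had a log2 of at least 5. Named genes were the 10 members, genes called in the lists, the 5 genes most like Actb and the 1 most like each other member, and the 10 largest ratios of the library with the high Actb to the next library among genes of at least 100 CPM. Listed genes named for their level in that library were chosen after their values were seen; some genes are not reported here. Members are named in a comparison from a log2 change of 0.25 or at the ends of a range. The members and lists were chosen with earlier results of these data known. The series text gives 12 weeks for the later time and the sample labels 20 weeks, which was used. Sequences are from RefSeq (promoters, GRCm38.p6) and GENCODE M21 (coding stretches).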

Additional observations from a re-analysis of the deposited data

How the results depend on the processing

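No partner was called in any of the 6 comparisons under any alternative. The ratio of Actb in KO-labelled replicate 3 of 8 weeks to the next library, 2.62, was 2.57 with RLE factors, 2.21 on the plain library total, 2.75 by TPM and 2.60 with the members left out of the TMM library size. Leaving out a library other than the next highest, WT-labelled replicate 2 of 8 weeks, cannot change this ratio. Leaving out that library can only raise it, and it was then 4.38. Leaving out single libraries put Actb between genotypes at 20 weeks at -0.15 to 0.24; it was negative without KO-labelled replicates 1 (-0.02) and 2 (-0.15) and WT-labelled replicates 1 (-0.10) and 3 (-0.04), in which fewer libraries enter.

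Untested Actb differences turned sign with KO-labelled replicate 3 of 8 weeks left out: -0.90 for genotype at 8 weeks, -0.43 averaged, 0.94 for the difference between times and 0.27 for time in KO-labelled cells. Without it and WT-labelled replicate 2 they were -0.59, -0.28, 0.64 and 0.27. Tmsb4x turned to 0.36 for genotype at 8 weeks without WT-labelled replicate 3, and to -0.26 for time in KO-labelled cells with thread number as a covariate. Tmsb10 turned to 0.17 for genotype at 8 weeks without both libraries that stood apart. With its copies added it turned to 0.05 for time in WT-labelled cells and to -0.13 for the difference between times. Pfn1 turned to -0.27 for that difference and to -0.31 for time in KO-labelled cells without KO-labelled replicate 2 of 20 weeks. Leaving out each library in turn gave ranges of -0.90 to 1.07, -0.43 to 0.55, -1.05 to 0.94 and -1.73 to 0.27 for those 4 Actb differences. The ranges were -0.64 to 0.36 for Tmsb4x between genotypes at 8 weeks, -0.27 to 1.03 for the Pfn1 difference between times and -0.31 to 0.86 for Pfn1 over time in KO-labelled cells. The causes were not tested.

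Whether KO-labelled and WT-labelled libraries with the same replicate number came from 1 host is not stated. Their deviations correlated at 0.0676, 0.131 and 0.156 at 20 weeks and at 0.312, 0.209 and 0.0774 at 8 weeks, all positive but not all above 0.1, so they were not treated as paired. With a replicate block, Actb was at -0.05 for genotype at 8 weeks, -0.01 averaged and 0.07 for the difference between times. The block also gave adjusted p-values above 0.05 for Coro2b at 8 weeks (0.0524) and averaged (0.072), Fos in KO-labelled cells (0.0542) and Egr1 in WT-labelled cells (0.0952). Calls over all genes, in the order genotype at 20 weeks, at 8 weeks, averaged, difference between times, time in KO-labelled and time in WT-labelled cells, were 8, 29, 32, 14, 9 and 74 in edgeR. They were 4, 15, 19, 9, 5 and 49 with the block and 32, 75, 76, 35, 150 and 498 in DESeq2. Fos in KO-labelled cells also missed the threshold on the plain library total (adjusted p = 0.106), in the libraries of the contrast alone (0.169) and with thread number as a covariate (0.0585). With 3 libraries a group, the median SE of a log2 fold change over all genes was 0.35 within 1 time.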
